A study of Rattus norvegicus with 2 samples.

Results

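The genes described here serve protein folding, quality control and entry at the endoplasmic reticulum (ER). They are 34 symbols chosen by name with earlier results of these data known, all present in the gene table of 25399 genes. By role, 18 belong to folding (8 chaperones, 4 DNAJ co-chaperones and 6 genes of disulfide bond formation), 7 to degradation of misfolded proteins, 4 to stress sensing and 5 to translocation into the ER. They were measured by droplet single-cell RNA sequencing in rat (Rattus norvegicus) neural stem cells of E14.5 Sprague-Dawley embryonic cortex, bought as isolated cells and grown with FGF2, which holds them undifferentiated. Treatment was 30 µM ZD7288, which blocks hyperpolarisation-activated channels, dissolved in 0.2% DMSO. The vehicle culture received 0.2% DMSO alone. Both were kept for 48 h, with fresh medium and compound after 24 h. One label spells the compound ZD2788. The labels name no genotype and no number of source animals. With 1 culture and 1 library for each group, effects of culture, library and treatment cannot be told apart, and no difference has a replicate check.

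Proteins that enter the secretory pathway pass through the Sec61 channel, are bound by lumenal chaperones while they fold, and gain disulfide bonds from the protein disulfide isomerase family. Chains that fail to fold are recognised, drawn back to the cytosol and ubiquitinated by a membrane ligase complex. When unfolded proteins build up, the sensors encoded by Ern1, Atf6 and Eif2ak3 act through the factors XBP1, ATF6 and ATF4 to raise genes of folding and degradation, and ATF4 also answers amino acid shortage without ER stress.

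Promoter sequence was set beside the counts because ATF6, XBP1 and ATF4 act on such genes through known promoter elements. RefSeq promoter windows (assembly GRCr8, 250 bases before to 50 after each transcription start) were matched for 28 of the 34 members, with 2 windows for Hyou1. No window was matched for Manf, Pdia3, Pdia6, Derl1, Atf6 and Ern1. The ER stress element (ERSE, letters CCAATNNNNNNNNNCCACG, searched on both strands) was found in 9 of the 28 members and in 22 of all 33469 windows (0.0657%). Those members were Hspa5, Hsp90b1, Calr, Canx, Creld2, Dnajc3, Ero1b, Derl3 and Xbp1. The related ERSE-II (ATTGGNCCACG) was found in Hyou1, Dnajb11 and Herpud1, and in 17 of all windows (0.0508%). A core of the unfolded protein response element (TGACGTG) lay in Hspa5, Hyou1 and Dnajc10, against 1.81% of all windows. The CCAAT box, whose letters also lie inside both ER stress elements, was held by 24 of 28 members (85.7%) against 37.5% of all windows. The amino acid response element core (TGATGNAA) was found in Herpud1, 1 of 28 members (3.57%), against 3.98% of all windows. In Hyou1 a TGACGTG overlaps an ERSE-II. A match describes letters and not a bound site.

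The 250 bases before the start are printed, 5′ to 3′ on the gene's strand, for 6 members on which the comparison turns. Capitals mark ERSE, ERSE-II or the amino acid response core on either strand. Hspa5 (chr3:38452766-38453015, plus strand) has its ERSE 43 bases before the start. Calr (chr19:40213117-40213366, plus) and Creld2 (chr7:121789134-121789383, plus) carry it reversed, 232 and 145 bases before the start. Herpud1 (chr19:10614708-10614957, minus) has the amino acid response core, reversed, at 184 bases and ERSE-II at 124 bases. Sdf2l1 (chr11:97376628-97376877, plus) and Edem1 (chr4:143353425-143353674, plus), the members with the lowest and the second highest ratio, hold none of the 3 capitalised elements in their windows.
Hspa5: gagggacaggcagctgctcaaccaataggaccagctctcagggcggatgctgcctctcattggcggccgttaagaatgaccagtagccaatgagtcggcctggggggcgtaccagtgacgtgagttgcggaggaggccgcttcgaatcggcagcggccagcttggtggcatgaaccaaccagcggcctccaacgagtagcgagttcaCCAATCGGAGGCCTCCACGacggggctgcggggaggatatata
Calr: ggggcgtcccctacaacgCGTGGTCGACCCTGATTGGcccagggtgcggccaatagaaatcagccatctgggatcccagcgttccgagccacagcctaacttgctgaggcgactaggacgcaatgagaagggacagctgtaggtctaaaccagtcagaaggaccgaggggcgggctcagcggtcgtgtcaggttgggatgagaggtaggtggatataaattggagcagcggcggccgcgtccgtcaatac
Creld2: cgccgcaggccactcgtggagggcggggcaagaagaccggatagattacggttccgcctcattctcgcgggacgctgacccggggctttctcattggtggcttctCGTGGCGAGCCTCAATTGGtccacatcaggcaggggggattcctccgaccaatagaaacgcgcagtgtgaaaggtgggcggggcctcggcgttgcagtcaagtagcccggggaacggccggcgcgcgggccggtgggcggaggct
Herpud1: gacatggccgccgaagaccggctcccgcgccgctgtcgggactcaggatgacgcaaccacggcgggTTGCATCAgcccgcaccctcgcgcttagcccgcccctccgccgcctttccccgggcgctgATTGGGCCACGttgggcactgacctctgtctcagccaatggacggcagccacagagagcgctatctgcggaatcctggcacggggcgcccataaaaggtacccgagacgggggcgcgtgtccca
Sdf2l1: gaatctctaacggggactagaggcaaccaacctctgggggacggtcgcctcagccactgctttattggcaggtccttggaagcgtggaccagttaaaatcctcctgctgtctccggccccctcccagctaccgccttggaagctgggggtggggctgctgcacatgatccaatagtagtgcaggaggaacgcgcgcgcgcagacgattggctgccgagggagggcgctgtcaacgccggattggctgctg
Edem1: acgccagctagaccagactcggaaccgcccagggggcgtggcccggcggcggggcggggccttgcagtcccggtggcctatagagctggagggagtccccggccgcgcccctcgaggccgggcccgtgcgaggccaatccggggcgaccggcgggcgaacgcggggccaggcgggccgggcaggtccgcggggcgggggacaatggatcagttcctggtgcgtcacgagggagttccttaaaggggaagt

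**Figure D1:**
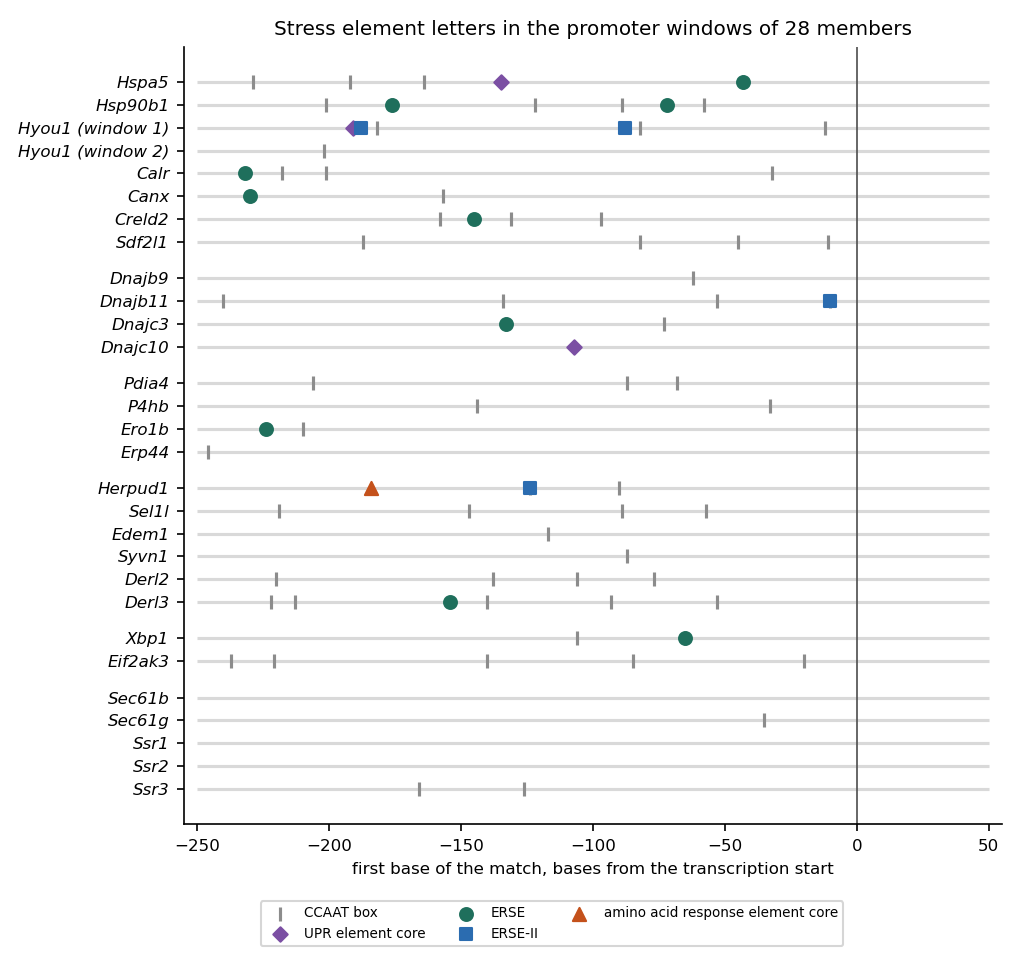
Positions of 5 motifs in the promoter windows of 28 members; the x axis gives bases from the transcription start and each line is 1 window. ERSE marks stand in 9 members and ERSE-II marks in 3, while the 5 translocation genes carry neither.

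After filtering, the vehicle library held 732 cells with 15611454 UMIs (unique molecular identifiers, each 1 captured molecule) and the ZD7288 library 3135 cells with 73681950. Levels are counts per 1000000 UMIs of a library (CPM). A gene was called measured at a mean of at least 10 CPM over both libraries, which 6082 genes reached, and their median log2 ratio of ZD7288 to vehicle was 0.07. Of the neural stem cell markers 8 of 8 were matched, at a summed 7538 CPM with vehicle and 7478 CPM with ZD7288. Of the 7 measured, 1 was higher (Slc1a3, ratio 1.58) and 2 were lower (Fabp7, 0.764, and Sox9, 0.568), while Vim, with most of the sum, had a ratio of 1.12. Oligodendrocyte lineage markers summed to 2130 and 1167 CPM, and mesenchymal markers to 0.705 and 16.1 CPM, with 6 of 8 at 0 in vehicle. Microglial markers were at 0 for 5 of 5 genes with vehicle and 3 of 5 with ZD7288. Treated cells were deeper (median 23001 against 17119 UMIs) and poorer in mitochondrial UMIs (median 4.70% against 5.84%). The part of marker levels and depth in the differences given here was not tested beyond the ranges of cells by depth, cell cycle and mitochondrial UMIs. The libraries share 3 barcode sequences.

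Genes listed as ER chaperones were mostly lower in the ZD7288 library, and 4 of 5 translocation genes were called in neither direction. Among the degradation genes 2, Herpud1 and Edem1, stood at over 2-fold the vehicle level. Of the 34 members 28 were measured. Ero1b, Derl3 and all 4 sensor genes fell under the floor. Edem1 (8.97 CPM with vehicle), Sdf2l1 (7.70 CPM with ZD7288) and Syvn1 (9.15 CPM with ZD7288) reached it only through their other library. Called at a log2 ratio of 0.32 or more in either direction, 5 of the 28 were higher and 8 lower, where 26% of all measured genes were higher and 14.7% lower. With the median gene ratio as the scale of the libraries, those shares of all genes were 20.1% and 19.0%. At 1.5-fold, 2 members were higher and 3 lower, against 9.68% and 5.56% of all measured genes. Folding genes had 2 of 17 measured members higher and 7 lower, and the median log2 ratio was -0.18. Degradation genes had 2 of 6 higher and 1 lower, and the median log2 ratio was 0.08. Summed, the 18 folding genes stood at 2883 CPM with vehicle and 2530 CPM with ZD7288, and the 7 degradation genes at 191 and 248 CPM.

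**Figure D2:**
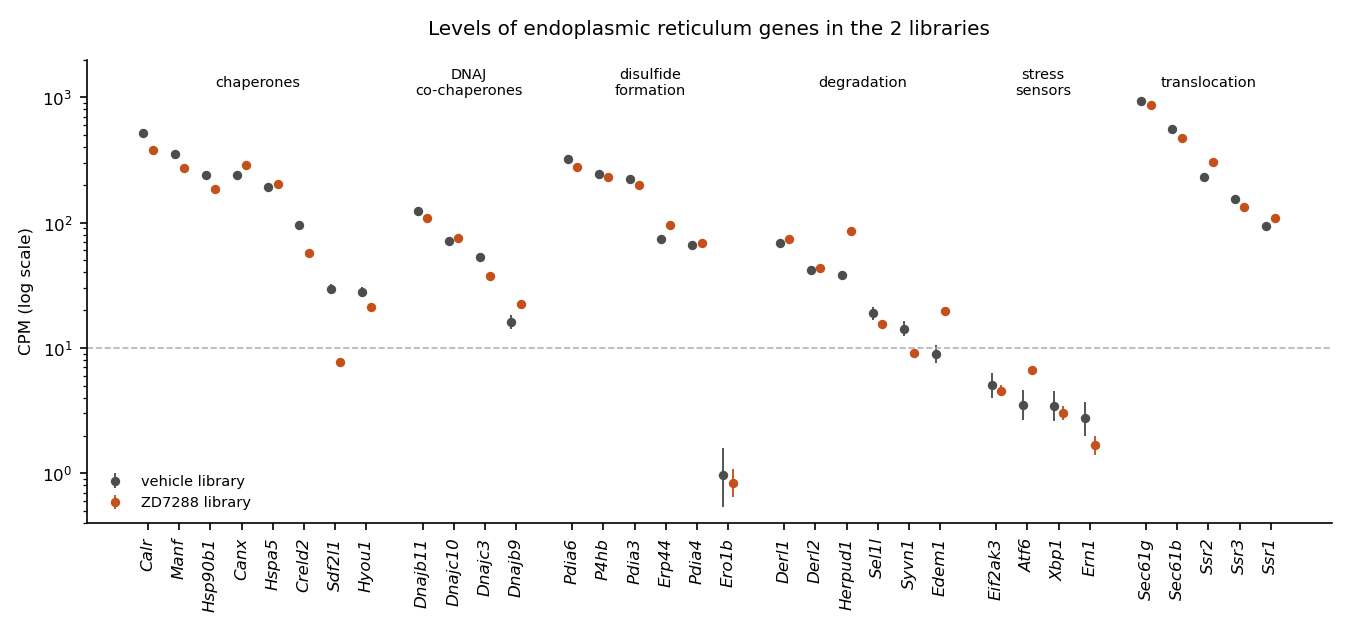
CPM of 33 members in the vehicle and the ZD7288 library on a log axis, grouped by role, with exact 95% Poisson intervals for counting error; Derl3 had no UMI and is not drawn, and the dashed line is the floor of 10 CPM. Sdf2l1 lies at 29.7 CPM with vehicle and 7.70 CPM with ZD7288, and Herpud1 at 38.2 and 86.1 CPM.

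Most genes listed as chaperones were lower with ZD7288. Of 8 measured genes 6 were lower, 0 were higher and 2 passed in neither direction, where 14.7% of all measured genes were lower. The median log2 ratio was -0.39. Sdf2l1, Creld2 and Manf, all lower, are in this list. Of the others, Hsp90b1, Hyou1 and Calr were lower, and Hspa5 and Canx were not called. The contrast between roles depends on this listing. The summed level of the 8 genes was 1696 CPM with vehicle and 1410 CPM with ZD7288. The gene with the largest difference was Sdf2l1 (ENSRNOG00000001859), which encodes a stress-inducible lumenal protein that works with the chaperone BiP and its co-chaperones. It had 464 UMIs or 29.7 CPM (95% interval 27.1 to 32.6) with vehicle and 567 UMIs or 7.70 CPM (7.07 to 8.36) with ZD7288. It was 3.86-fold lower (3.41 to 4.37), and 5 of 6082 measured genes had a lower ratio. These and the following intervals cover counting error alone.

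Creld2 (ENSRNOG00000004659), another stress-inducible gene whose product has disulfide exchange activity, followed with 95.4 CPM with vehicle and 56.9 CPM with ZD7288, 1.68-fold lower (1.58 to 1.78). The calcium-binding lectin chaperone gene Calr (ENSRNOG00000003029), the chaperone with most UMIs, stood at 522 CPM (511 to 533) with vehicle and 379 CPM (375 to 384) with ZD7288, 1.38-fold lower (1.34 to 1.41). Manf, which encodes a secreted trophic factor held in the ER by BiP, was at 351 and 270 CPM, 1.30-fold lower (1.26 to 1.34). These 3 genes were thus lower in treated cells by amounts well outside counting error. Hsp90b1, the ER member of the HSP90 family, was at 240 CPM with vehicle and 184 CPM with ZD7288, 1.30-fold lower (1.26 to 1.35). Hyou1, a large chaperone that drives nucleotide exchange on BiP, was at 28.1 and 21.4 CPM, 1.31-fold lower (1.18 to 1.46). Its call was lost with cells thinned to 2000 UMIs (log2 ratio -0.14), in cells of 10000 to 30000 UMIs (-0.23) and in cells of 3 to under 5% mitochondrial UMIs (-0.20). Calr, Manf and Hsp90b1 also fell under the rule of 0.32 in at least 1 range of cells by depth, cell cycle RNA or mitochondrial share.

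Hspa5 and Canx were the 2 measured chaperones that were not called lower. Hspa5 (ENSRNOG00000018294), which encodes BiP, had 191 CPM (184 to 198) with vehicle and 202 CPM (199 to 205) with ZD7288, a ratio of 1.06 (1.02 to 1.10). Its log2 ratio of 0.08 was close to the median of all measured genes, and was 0.01 when scaled by the median gene ratio. Its sign was not stable: it was -0.06 with cells thinned to 2000 UMIs. In cells of 3 to under 5% mitochondrial UMIs it was -0.42 and in cells of 7 to 10% it was 0.56, both past the rule. Canx, the membrane-bound partner of calreticulin in glycoprotein folding, was at 239 and 288 CPM, a log2 ratio of 0.27 (0.22 to 0.32) that was not called. The lectin chaperones thus lay on opposite sides of the vehicle level, Calr lower and Canx above it without a call.

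Among the 4 DNAJ co-chaperones, which stimulate the ATPase of BiP, 1 gene was higher and 1 lower. The shares of all measured genes were 26% higher and 14.7% lower. Dnajc3, which is also known to inhibit eIF2 kinases, was at 52.9 CPM with vehicle and 37.4 CPM with ZD7288, 1.41-fold lower (1.31 to 1.53), a call that was lost in cells low in cell cycle RNA (log2 ratio -0.10). Dnajb9, which also restrains the sensor IRE1, was at 16.1 and 22.5 CPM, a ratio of 1.40 (1.23 to 1.61). Its log2 ratio of 0.49 was 0.21 with cells thinned to 2000 UMIs and 0.13 in cells of 3 to under 5% mitochondrial UMIs, which ended the call. Dnajb11, the partner of Sdf2l1 and the co-chaperone with most UMIs, was at 124 and 109 CPM, a ratio of 0.881 (0.838 to 0.927). Dnajc10, a reductase that unlinks disulfides before degradation, stood at 70.7 and 75.0 CPM with an interval of the ratio that included 1 (0.994 to 1.13). The 4 genes therefore had no common direction.

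The genes listed under disulfide formation stayed near the vehicle level. Creld2 (log2 ratio -0.75), whose product has disulfide exchange activity, was listed with the chaperones. Of 5 measured disulfide genes 1 was higher and 0 lower, where 26% and 14.7% of all measured genes were. The median log2 ratio was -0.08. Erp44, which retrieves oxidases and unassembled clients from the early secretory pathway, was at 73.9 CPM with vehicle and 94.9 CPM with ZD7288, a ratio of 1.29 (1.21 to 1.37). This call held in 5 of 11 other settings, with a lowest log2 ratio of 0.17. Pdia6, the member with most UMIs, was at 319 and 280 CPM, a ratio of 0.878 (0.851 to 0.906). The isomerase genes Pdia3, P4hb and Pdia4 had ratios of 0.910, 0.948 and 1.04. Ero1b, an oxidase that recharges the isomerases, had 15 UMIs with vehicle and 62 with ZD7288, with a ratio interval of 0.492 to 1.66 that spans both directions.

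Of 6 measured degradation genes 2 were higher, 1 was lower and 3 were not called. These counts lie near the shares of all measured genes, 26% higher and 14.7% lower. Herpud1 (ENSRNOG00000018796), which encodes a membrane protein that organises the ligase complex, had 596 UMIs or 38.2 CPM (35.2 to 41.4) with vehicle and 6341 UMIs or 86.1 CPM (84.0 to 88.2) with ZD7288. Its ratio was 2.25 (2.07 to 2.46), with 119 of 6082 measured genes above it. Edem1 (ENSRNOG00000055365), a lectin-like protein that marks misfolded glycoproteins for disposal, had 140 UMIs or 8.97 CPM (7.54 to 10.6) with vehicle and 1443 UMIs or 19.6 CPM (18.6 to 20.6) with ZD7288. Its ratio was 2.18 (1.84 to 2.62). Both genes were higher in treated cells by more than the ratio of any folding gene.

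The ligase itself differed in the other direction. Syvn1, which encodes the ubiquitin ligase HRD1, was at 14.3 CPM (12.5 to 16.3) with vehicle and 9.15 CPM (8.47 to 9.86) with ZD7288, 1.56-fold lower (1.34 to 1.82). In cells of 3 to under 5% mitochondrial UMIs its log2 ratio was -0.24 and not called. Sel1l, the adaptor that holds the ligase complex together, was at 18.9 and 15.4 CPM, a ratio of 0.814 (0.716 to 0.929) that was not called (log2 -0.30). Derl1, a retrotranslocation channel component and the degradation gene with the highest mean CPM, was at 68.9 and 74.6 CPM. Derl2, of the same family, was at 42.0 and 43.0 CPM with a ratio interval of 0.943 to 1.12. The derlin genes were thus not called, the ligase gene was lower and the organiser Herpud1 was higher. Derl3 had no UMI in either library, which allows up to 0.192 CPM with vehicle and 0.0407 CPM with ZD7288.

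**Figure D3:**
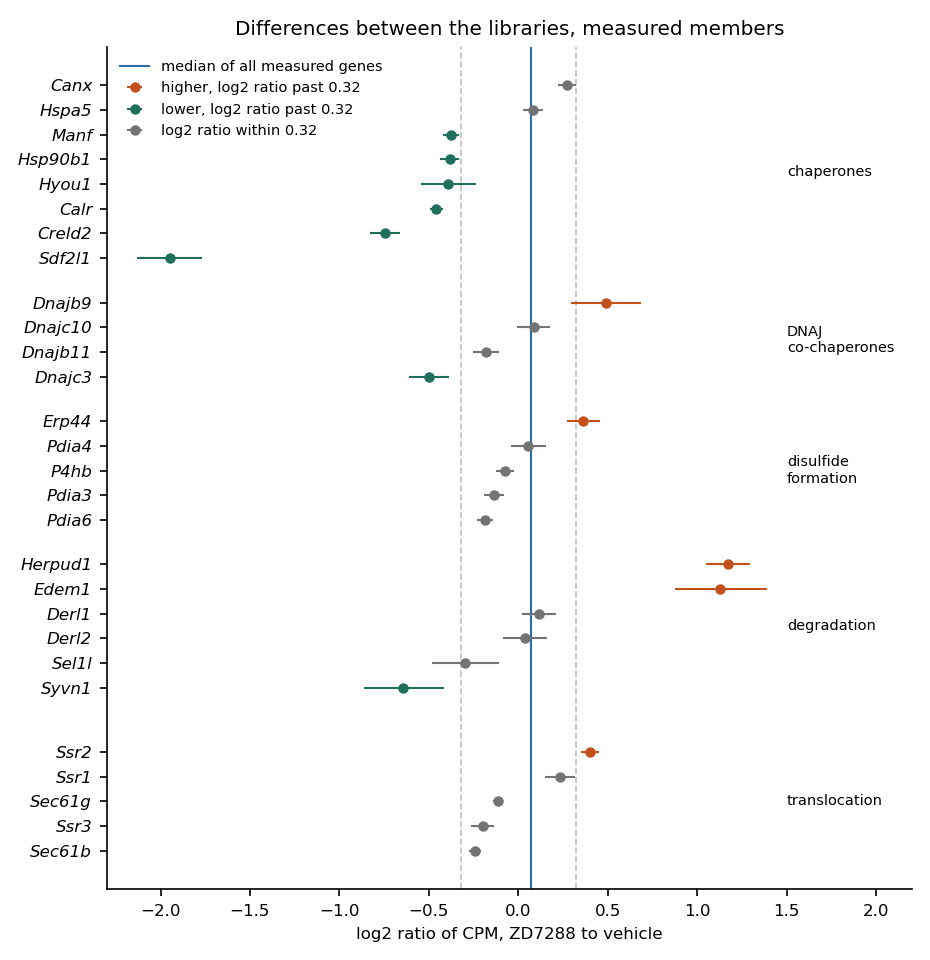
Log2 ratio of ZD7288 to vehicle CPM for the 28 measured members, by role, with exact 95% intervals for counting error; dashed lines mark the call at 0.32 and the solid line the median of all measured genes (0.07). 6 of 8 chaperones lie left of the lower dashed line, while Herpud1 (1.17) and Edem1 (1.13) lie farthest right.

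The sensor genes were too low for a call. Atf6 had 55 UMIs or 3.52 CPM with vehicle and 488 UMIs or 6.62 CPM with ZD7288, a ratio of 1.88 (1.42 to 2.53) whose interval lies above 1. Ern1, which encodes IRE1, had 43 and 123 UMIs, a ratio of 0.606 (0.425 to 0.879). Eif2ak3, which encodes PERK, was at 5.06 and 4.57 CPM, and Xbp1 at 3.46 and 3.03 CPM, both with intervals that include 1. Splicing of Xbp1 and cleavage of ATF6, the steps by which these sensors act, are not seen in gene counts.

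The 5 translocation genes had 1 member higher and 0 lower, where 26% and 14.7% of all measured genes were. Their median log2 ratio was -0.12. Ssr2, a subunit of the translocon-associated complex, was at 230 CPM with vehicle and 303 CPM with ZD7288, a ratio of 1.32 (1.27 to 1.37), and was the 1 gene called of 5. Its log2 ratio was 0.27 in cells of 3 to under 5% mitochondrial UMIs and just under the 0.32 rule with each cell weighted alike, without a call in either. Ssr1 and Ssr3, of the same complex, differed in sign, with ratios of 1.17 (1.11 to 1.24) and 0.871 (0.833 to 0.911). The Sec61 channel subunit genes Sec61g and Sec61b were at 934 and 555 CPM with vehicle and 862 and 469 CPM with ZD7288, with log2 ratios of -0.12 and -0.24. Subunits of 1 complex therefore did not share a direction.

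Other genes of these pathways were read against the same shares of all measured genes, 26% higher and 14.7% lower. They were listed by role, with earlier results of these data known. Of 20 measured further folding genes 6 were higher and 1 lower, and the median log2 ratio was 0.11. Uggt1, the glucosyltransferase that sends unfolded glycoproteins back to calreticulin and calnexin, was the lower gene, at 20.6 CPM with vehicle and 9.88 CPM with ZD7288, 2.09-fold lower (1.83 to 2.38). The largest ratios were those of the calcium-binding Rcn2 (1.57), the oxidase Ero1a (1.43) and the glucosidase subunit Prkcsh (1.39). Of 17 measured further degradation genes 3 were higher, the mannosidase gene Man1b1 (1.54), Faf2 (1.44), whose product recruits the segregase VCP, and Vcp itself (1.40). The lower ones were 2, the relative of Edem1 named Edem2 (0.722) and the VCP cofactor gene Nploc4 (0.780), and the median log2 ratio was 0.02. Of 25 genes of targeting, signal cleavage and glycosylation 4 were higher and 1 lower, and the median log2 ratio was 0.06. The higher genes with the largest ratios were the signal recognition particle genes Srp68 (1.46) and Srp54 (1.37) and the Sec61 partner Sec63 (1.44), and the lower gene was the signal peptidase subunit Sec11c (0.679).

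In stress processing and eIF2 signalling, 7 of 10 measured genes were higher and 0 lower, against 26% and 14.7% of all measured genes. The median log2 ratio was 0.56. This list too was drawn up with earlier results of these data known. Ddit3, which encodes the stress factor CHOP, was at 16.3 CPM with vehicle and 51.1 CPM with ZD7288, a ratio of 3.13 (2.76 to 3.57). The phosphatase subunit gene Ppp1r15a had a ratio of 2.72 (2.33 to 3.20) and Atf4 of 2.25 (2.15 to 2.35). The ratios of Herpud1 (2.25) and Edem1 (2.18) were near that of Atf4 and under those of Ddit3 and Ppp1r15a. The next highest ratio of a measured member was that of Dnajb9 (1.40). A link between these genes was not tested.

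The stress elements were also counted by call. An ERSE or ERSE-II stood in 5 of 7 lower members with a window, in 1 of 5 higher members (Herpud1) and in 3 of 12 members called neither, against 0.117% of all windows. By role it stood in 6 of 7 chaperones, 2 of 4 co-chaperones, 2 of 6 degradation genes, 1 of 4 disulfide genes and 0 of 5 translocation genes. Of 4 members not measured, 3 held an element. Hspa5 and Canx carry an ERSE and were not lower, and Sdf2l1 and Syvn1 carry neither element and were lower. Most chaperones were called lower, so the counts by call and by role cannot be told apart. These counts are over few genes and are a description.

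Shares of cells gave the same order as the summed levels for the genes with the largest ratios. With every cell thinned to 2000 UMIs (724 vehicle and 2956 treated cells, with 8 and 179 shallower cells left out), a Sdf2l1 UMI was seen in 5.25% of vehicle cells (exact binomial 95% interval 3.74 to 7.13) and 1.62% of treated cells (1.20 to 2.15). Unthinned, the shares were 41.0% and 15.0%. Herpud1 was seen in 8.01% (6.14 to 10.2) and 15.5% (14.2 to 16.8) of thinned cells, and in 49.9% and 75.4% unthinned. Edem1 was rarer, in 1.38% (0.664 to 2.53) and 3.45% (2.82 to 4.17), and 17.3% and 34.8% unthinned. Calr was seen in 63.3% (59.6 to 66.8) and 52.0% (50.2 to 53.8), and in 98.5% and 94.4% unthinned. Hspa5 was seen in 33.0% (29.6 to 36.6) and 32.6% (30.9 to 34.3), and in 86.3% and 89.2% unthinned. A cell type without these genes was not at hand, so the share that free RNA gives was not measured.

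Summed per cell at 5000 UMIs, the 18 folding genes gave a mean of 14.4 UMIs (SD over cells 5.54) in 710 vehicle cells and 12.6 UMIs (SD 4.60) in 2838 treated cells, with medians of 14 and 12. The 95th percentile was 25 UMIs with vehicle and 21 with ZD7288, and the 5th percentile was 6 in both. The vehicle distribution was therefore wider at its upper end. Hspa5 had a Fano factor (variance over mean) of 1.59 with vehicle and 1.26 with ZD7288 at that depth. The 7 degradation genes gave a mean of 0.942 and 1.24 UMIs per cell.

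**Figure D4:**
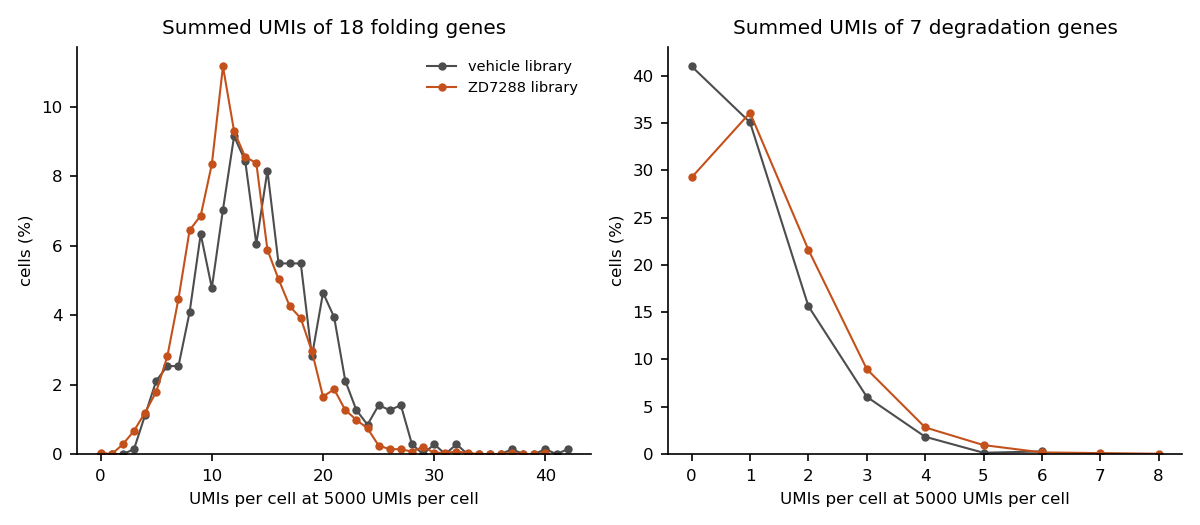
Percent of cells (y axis) by summed UMIs per cell (x axis) of the 18 folding genes and of the 7 degradation genes, with each cell thinned to 5000 UMIs, in 710 vehicle and 2838 ZD7288 cells. The folding curve of the treated cells lies left of the vehicle curve (medians 12 and 14 UMIs), and fewer treated cells have 0 degradation UMIs.

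The libraries were next compared within ranges of UMIs per cell, which narrow the difference in depth without removing it. From 5000 to under 20000 UMIs (435 vehicle and 773 treated cells, median 14052 and 16912 UMIs) and from 20000 UMIs (275 and 2065 cells, median 28174 and 26489 UMIs), the folding median log2 ratio was -0.15 in both. Under 5000 UMIs it was -0.79, on 22 vehicle and 297 treated cells. The chaperone median was -0.35 in the middle range and -0.46 in the deepest. In the middle range Hsp90b1 (-0.20) and Hyou1 (-0.28) lost their calls and Canx was called higher (0.35). In the deepest range Manf (-0.28) lost its call, and 5 of 8 chaperones were lower, where 16.4% of all measured genes were. Sdf2l1 was 3.01-fold lower (2.38 to 3.83) in the middle range and 4.11-fold lower (3.52 to 4.78) in the deepest. Herpud1 had ratios of 1.85 (1.62 to 2.11) and 2.59 (2.31 to 2.92) there, and Edem1 of 1.54 (1.15 to 2.11) and 2.39 (1.91 to 3.03). Sdf2l1, Herpud1 and Edem1 kept their direction in both ranges, with the larger difference in the deeper cells.

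Levels of some folding genes differed with cell cycle RNA. Cells were divided at 10 UMIs of 89 cell cycle genes per thinned cell, into 95 and 629 vehicle cells and 781 and 2175 treated cells. Their median depths were 13700 and 17865 UMIs with vehicle and 21768 and 24456 UMIs with ZD7288, so depth differed as well. In vehicle, Hspa5 was at 147 CPM below the limit and 195 CPM from it, a ratio of 1.33 (1.16 to 1.53), while treated cells had 198 and 203 CPM, a ratio of 1.02 (0.984 to 1.06). Creld2 had a ratio of 1.47 (1.20 to 1.80) with vehicle and 1.13 (1.05 to 1.22) with ZD7288. Dnajb9 was the opposite case, at 30.4 CPM below and 20.1 CPM from the limit in treated cells, and 15.1 and 16.2 CPM in vehicle. Against vehicle, Hspa5 was thus 1.35-fold higher (1.18 to 1.55) in treated cells low in cell cycle RNA and had a ratio of 1.04 with an interval that includes 1 in the others (0.995 to 1.08). Sdf2l1 was lower in both ranges, 3.98-fold (2.75 to 5.66) and 3.81-fold (3.33 to 4.36).

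The chaperones Hsp90b1, Hyou1 and Manf were called lower from the limit upward and not below it. Below the limit 3 of 8 chaperones were lower (Sdf2l1, Creld2 and Calr) and 2 higher (Hspa5 and Canx), with a median log2 ratio of -0.19, where 20.5% of all measured genes were lower and 32.9% higher. All 17 folding genes had 3 lower and 4 higher there, with a median of -0.08. From the limit upward 6 chaperones were lower and 0 higher, with a median of -0.42, where 13.8% of all genes were lower, and folding genes had 7 lower and 1 higher. Below the limit Hsp90b1 had a ratio of 0.894 (0.792 to 1.01), Hyou1 of 0.922 (0.665 to 1.31), Dnajc3 of 0.933 (0.728 to 1.21) and Manf of 0.859 (0.783 to 0.943), none of which was called. The difference between these ranges was not tested, and the range below the limit rests on 95 vehicle cells.

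The size of the folding difference moved with the mitochondrial share of a cell. The libraries were spread unlike over this share: cells of 3 to under 5% made up 21.0% of the vehicle and 50.1% of the ZD7288 library, cells of 5 to under 7% made up 57.5% and 34.3%, and cells of 7 to 10% made up 18.9% and 4.72%. At 3 to under 5% (154 vehicle and 1570 treated cells) 10 of 17 folding genes were called lower, and the median log2 ratio was -0.43, where 16.8% of all measured genes were lower. At 5 to under 7% (421 and 1075 cells) the median was -0.15. At 7 to 10% (138 and 148 cells) 5 were lower and 4 higher, and the median was 0.07, where 17.6% of all genes were lower and 32.7% higher. The chaperones alone had medians of -0.62, -0.39 and -0.35 in these 3 ranges, with 6 of 8 lower in the first and 4 of 8 in the last. The disulfide genes went from a median of -0.30 at 3 to under 5% to 0.11 at 7 to 10%, and the co-chaperones from -0.30 to 0.17. The median of all measured genes moved as well, at -0.003, 0.05 and 0.11 in the 3 ranges. The treated folding genes were thus lowest against vehicle among cells with a small mitochondrial share, where under 3% the median was -0.62 on 19 vehicle cells. These ranges were chosen after the data were seen.

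Hspa5 changed direction across these ranges. In vehicle it stood at 276 CPM (257 to 295), 182 CPM (174 to 191) and 134 CPM (122 to 147) from the lowest to the highest of the 3 ranges. In treated cells it stood at 207 CPM (202 to 211), 197 CPM (192 to 202) and 197 CPM (182 to 213). Treated cells were thus below vehicle in the first range and above it in the last, and the near-equal library levels of 191 and 202 CPM are sums over such ranges. Calr was at 623, 518 and 440 CPM with vehicle and 374, 395 and 362 CPM with ZD7288, called lower in the first 2 ranges and not in the last (log2 ratio -0.28). Manf likewise was not called at 7 to 10% (-0.21). Sdf2l1, Creld2 and Hsp90b1 were called lower in treated cells in each of the 3 ranges. The log2 ratios were -2.01, -1.78 and -1.42 for Sdf2l1 and -0.80, -0.78 and -0.66 for Creld2. For Hsp90b1 they were -0.64, -0.35 and -0.41. Herpud1 was higher in each, with log2 ratios of 1.12, 0.90 and 1.29.

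**Figure D5:**
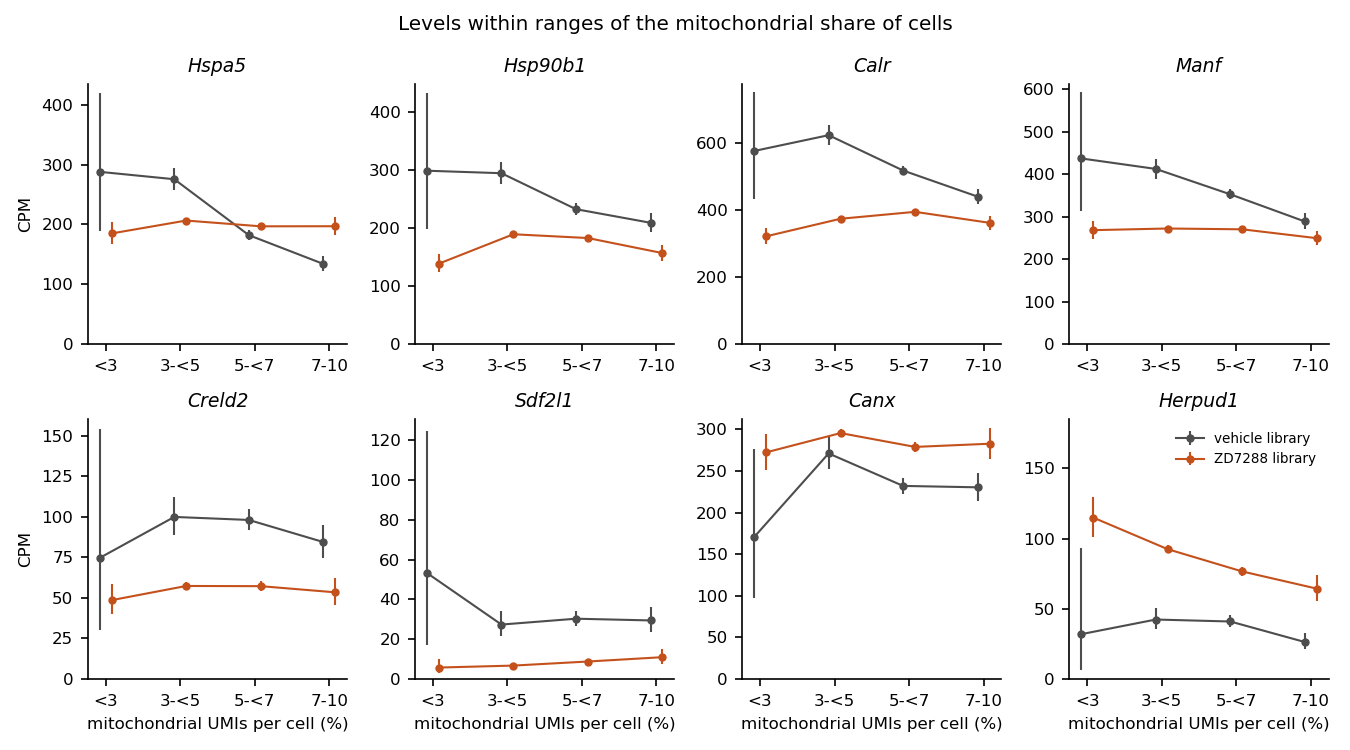
CPM of 8 members (y axis, from 0) in cells grouped by the percent of mitochondrial UMIs per cell (x axis) in the vehicle and the ZD7288 library, with exact 95% Poisson intervals. The vehicle curve of Hspa5 goes from 276 CPM at 3 to under 5% to 134 CPM at 7 to 10% and crosses the treated curve. From 3% upward the vehicle curves of Hsp90b1, Calr, Manf, Sdf2l1, Creld2 and Herpud1 stay apart from the treated curves. Under 3% rests on 19 vehicle cells.

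Within the vehicle library, cells of 7 to 10% against cells of 3 to under 5% had 11 of 17 folding genes called lower by the same 0.32 rule, and the median log2 ratio was -0.46. Of all measured genes 36.9% were lower in that comparison, and their median log2 ratio was -0.19. The median depth of the ranges was 17788 and 17624 UMIs. By role, 4 of 8 chaperones, 3 of 4 co-chaperones and 4 of 5 disulfide genes were lower. The largest folding differences were those of the disulfide gene Pdia4, at 98.2 and 43.6 CPM or 2.25-fold lower (1.84 to 2.77), and Hspa5, 2.05-fold lower (1.83 to 2.31). Dnajb11 was 1.71-fold lower (1.47 to 1.99) and Pdia6 1.63-fold lower (1.49 to 1.78), while the chaperones Sdf2l1 and Hyou1 had ratios of 1.08 (0.793 to 1.46) and 1.02 (0.736 to 1.40). Within the treated library the same comparison had 0 of 17 folding genes lower and 1 higher, and the median log2 ratio was -0.10, where 18% of all measured genes were lower and the median of all was -0.08. The higher gene was Sdf2l1, at 6.78 and 11.0 CPM, a ratio of 1.62 (1.11 to 2.31). Herpud1 was lower in cells of 7 to 10% in both libraries, at 42.4 and 26.4 CPM with vehicle and at 92.5 and 64.4 CPM with ZD7288. More folding genes therefore differed between these cells with vehicle than with ZD7288, Sdf2l1 being an exception, and the part of the mitochondrial share in the difference between the libraries was not tested beyond these ranges.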

How the data were processed

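The deposited matrix holds raw UMI counts of both libraries together, made by the authors with Cell Ranger per the submitters' processing notes, and the file header gives software version 3.0.2. The sources used here give no genome build, annotation or rule of barcode calling. Barcode suffixes 1 and 2 were assigned to the libraries whose sample titles begin with those numbers, and every direction rests on that match. UMI counts tag 3′ ends, so levels were not scaled by gene length. Levels were ranked between genes of a role only to choose a member to describe in full.

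Filtering required 1000 UMIs, 500 genes and no more than 10% mitochondrial UMIs per cell (732 of 842 vehicle and 3135 of 3849 ZD7288 barcodes). Kept counts were summed per library and scaled to CPM. Ratios carry exact Clopper-Pearson 95% intervals, levels exact Poisson and shares exact binomial ones, all covering counting error only. A count of 0 was taken to allow 3 counts. With 1 library per group no test was made. Genes count as higher or lower from log2 ratios of 0.32 and -0.32. Intervals and calls were tried on counts simulated with counting error alone. Those counts hold no spread between cells, cultures or libraries, so the trial cannot bear on such spread. Doublets were not called, and 1 alternative left out the cells of highest UMI count (4 vehicle and 79 ZD7288, at 0.8% per 1000 cells).

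The members and gene lists were chosen with earlier results of these data known. Members past that rule and the member with the highest CPM of each role are given in full, other members more briefly, and of each further list up to 3 genes with the largest and 3 with the smallest ratios past the rule. Marker genes are given as list sums. Promoter windows came from a RefSeq table of assembly GRCr8. Protein sequences were not used here. Alternatives covered scaling (with edgeR 4.0.16 for trimmed means), cell filter, cell weight, depth, the floor and the size rule. Analyses used Python 3.11.15, NumPy 2.4.6, SciPy 1.17.1, pandas 2.3.3, Matplotlib 3.10.9 and R 4.3.3.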

Additional observations from a re-analysis of the deposited data

How the results depend on the processing

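Of the 13 members called higher or lower, 13 kept their sign in 11 other settings of cells and scaling, and 8 stayed past the log2 rule of 0.32 in each of them. Hyou1, Dnajb9, Erp44, Syvn1 and Ssr2 fell under it in at least 1 setting. In 5 further ranges of cells (2 by depth, 2 by cell cycle RNA, and 7 to 10% mitochondrial UMIs) 13 kept their sign and 6 their call, and 4 were called in every setting and range: Sdf2l1, Creld2, Herpud1 and Edem1. Calr, Manf, Hsp90b1 and Dnajc3 lost their calls in at least 1 of those ranges. The other floors are not among these settings: 50 CPM leaves out Sdf2l1 and Edem1, and 20 CPM in the higher library leaves out Edem1. Cells under 5000 UMIs or under 3% mitochondrial UMIs were not counted here. The median log2 ratio of the folding genes (-0.18) was -0.26 when scaled by the median gene ratio, -0.26 with mitochondrial and ribosomal protein genes out of the total, -0.26 under a stricter cell filter (at least 5000 UMIs, at most 7% mitochondrial), -0.10 in cells thinned to 2000 UMIs and -0.43 in cells of 3 to under 5% mitochondrial UMIs. Folding members higher (2) were 1 under those 3 scalings and filters, in cells of 5 to under 7% mitochondrial UMIs and at a floor of 50 CPM, and 0 when thinned, in cells of 3 to under 5% and by the 1.5-fold rule. Folding members lower (7) were 4 at the floor of 50 CPM and 2 by the 1.5-fold rule. Degradation members higher (2) were 1 at a floor of 20 CPM in the higher library and at 50 CPM. Degradation members lower (1) were 2 under the same scalings and filter, with each cell weighted alike, without the cells of highest UMI count and in cells of 5 to under 7%, and 0 in cells of 3 to under 5% and at both other floors. The degradation median (0.08) was -0.10 in cells of 3 to under 5%. At 50 CPM it was 0.64, where only Herpud1 (log2 ratio 1.17) and Derl1 (0.12) passed the floor. Over the 11 settings, the share of all measured genes called higher ran from 17.7% (cells of 3 to under 5%) to 28.8% (thinned). The share called lower ran from 14.4% (each cell weighted alike) to 19.0% (mitochondrial and ribosomal protein genes out). By the 1.5-fold rule the shares were 9.68% higher and 5.56% lower. For the other floors they are not given, so the counts of members there cannot be read against a share. These counts of members are small beside such shares. The 2 mitochondrial settings were chosen after the data were seen. The cause of these shifts was not tested, except that higher floors leave fewer genes and the larger fold fewer calls by construction. No paired analysis was possible because each group is 1 sample. Depth limits the sensor genes, at 43 to 79 vehicle UMIs, and cells under 5000 UMIs, of which vehicle has 22.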

Other observations

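Barcodes left out for more than 10% mitochondrial UMIs (104 vehicle and 546 ZD7288) had a higher summed level of folding genes than kept cells, at 5820 against 2882 CPM with vehicle and 3858 against 2529 CPM with ZD7288 over 17 measured genes. With vehicle 16 of the 17 were above their level in kept cells and with ZD7288 13, where 39.9% and 34.6% of all measured genes were. Manf (268 against 270 CPM), Creld2 (58.0 against 56.9 CPM) and Pdia3 (201 CPM in both) were near their kept level in treated barcodes, and Erp44 (79.0 against 94.9 CPM) was below it. Hspa5 was at 1065 CPM in those vehicle barcodes and 696 CPM in those treated barcodes, on 341 and 1356 UMIs, against 191 and 202 CPM in kept cells. Pdia4 was at 344 and 241 CPM, against 66.0 and 68.6 CPM in kept cells, and Pdia6 at 715 and 458 CPM, against 319 and 280 CPM. Calr was at 903 and 459 CPM. Treated barcodes were lower for each of these 4 genes, with ratios of 0.653 (0.580 to 0.738) for Hspa5, 0.702 (0.569 to 0.872) for Pdia4, 0.640 (0.553 to 0.743) for Pdia6 and 0.509 (0.445 to 0.583) for Calr. Sdf2l1 was at 21.9 and 6.67 CPM, on only 7 and 13 UMIs, against 29.7 and 7.70 CPM in kept cells. Herpud1, at 37.5 and 88.8 CPM on 12 and 173 UMIs, lay near the level of kept cells in both libraries. Sec61b was at 212 and 240 CPM, below its 555 and 469 CPM in kept cells. Hspa5 in vehicle was thus lower with a larger mitochondrial share among kept cells and was highest among the barcodes over the limit. The depth of the barcodes over the limit is not given here, and its part in these levels was not tested. The genes named here were chosen after their values were seen.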
